A study of Mus musculus with 6 samples.

Results

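The enzymes that turn cholesterol into bile acids and join them to taurine or glycine were followed in mouse liver with and without Keap1. The members were 10 genes of 18193 with a probe set of their own on the array, chosen by name and shown with every probe set that carries only that symbol. They had 16 probe sets: 5 genes had 1, 4 genes had 2 and Cyp7b1 had 3. No probe set shared with another gene listed a member. The signal of 14 of them reached the level needed for testing (a mean over the 6 arrays at or above the 40th percentile), and each of the 10 genes had at least 1 such probe set.

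Liver RNA came from male mice aged 9 weeks that had received only vehicle (10% DMSO, 10% Cremophor-EL and 80% PBS), with 1 mouse on each array. The 3 knockouts carried Alb-Cre:Keap1(flox/-), a floxed allele opposite a null one, and are numbered 3, 4 and 5 in the labels. The 3 genetic controls carried Alb-Cre:Keap1(flox/+) and are numbered 1, 2 and 3. Both groups had Cre from the albumin promoter, which is active in hepatocytes, so in those cells the controls keep 1 working allele, while the null allele of the knockouts is present in every cell. KEAP1 holds the transcription factor NRF2 at a low level by presenting it to a ubiquitin ligase.

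Bile acids are made from cholesterol in hepatocytes. In the classical route CYP7A1 hydroxylates the sterol ring of cholesterol itself, HSD3B7 and AKR1D1 then remodel the ring, and CYP8B1 sets the share of cholic acid. In the oxysterol routes the side chain is oxidised first, by CYP27A1 or by enzymes outside the liver, and the ring hydroxyl is then added by CYP7B1 or CYP39A1. The peroxisomal enzymes AMACR and ACOX2 take part in shortening the side chain, and BAAT adds the amino acid.

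Promoter sequences from RefSeq (build GRCm38.p6, 250 bases before to 50 after a start site) were matched by symbol for 5 of the 10 genes, Acox2, Cyp8b1, Akr1d1, Hsd3b7 and Cyp27a1, with 6 windows in all since Acox2 has 2 listed starts. The windows below are those of the members in which the core of the antioxidant response element, the element that NRF2 binds together with small Maf proteins, was found. The core was searched as TGACNNNGC on both strands, and the match stands in capitals, read 5′ to 3′ along the gene. The Acox2 window is that of the upstream start, at chr14:8258970-8259269 on the minus strand, and the Cyp8b1 window lies at chr9:121916256-121916555 on the minus strand.
Acox2: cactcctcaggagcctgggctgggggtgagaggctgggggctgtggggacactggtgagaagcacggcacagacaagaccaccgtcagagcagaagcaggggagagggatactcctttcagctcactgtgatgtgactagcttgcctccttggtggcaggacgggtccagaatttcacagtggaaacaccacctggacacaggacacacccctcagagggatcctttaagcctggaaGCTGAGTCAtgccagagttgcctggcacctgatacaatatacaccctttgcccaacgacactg
Cyp8b1: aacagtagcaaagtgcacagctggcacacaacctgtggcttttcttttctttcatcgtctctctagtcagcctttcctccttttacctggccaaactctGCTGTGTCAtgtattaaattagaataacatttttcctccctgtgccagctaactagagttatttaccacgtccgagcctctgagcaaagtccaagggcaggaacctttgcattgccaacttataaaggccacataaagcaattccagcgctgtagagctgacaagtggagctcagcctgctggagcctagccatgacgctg

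In Acox2 the match lay 13 to 5 bases before the upstream start and 193 to 185 bases before the second one. In Cyp8b1 it lay 151 to 143 bases before the start. The core is common: 12.4% of 32851 promoter windows of this length hold it, and among the members 2 of the 5 genes do, since the overlapping Acox2 windows share 1 match. Of 2 further motifs searched on both strands, TGANTCA was found in both Acox2 windows, where it overlaps the core match (and once more after the second start), and in 7.81% of all windows. The nuclear receptor half-site AAGGTCA was found in 4.72% of all windows and in 0 of the 6. These are matches of letters, not measured binding sites.

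As a check of the labels, the brighter Keap1 probe set stood at 29.7% of control and passed (limma adjusted p = 0.0102), while the other stood at 62.5% and did not (0.222). The hepatocyte markers were bright on every array (Alb between 22569 and 28702), as the labelled tissue calls for. Of 10 hepatocyte markers 9 had higher means than in the controls (median log2 difference 0.21), the groups did not overlap in 8, and 0 passed the threshold (limma, 5 at an unadjusted p under 0.05). Their summed signal was 242104 to 266023 in the knockouts and 208900 to 232996 in the controls. Control 2 stood apart in some cholangiocyte markers. Krt19 read 502 there against 8.3 to 88.5 elsewhere, Muc1 745 against 6.2 to 10.6 and Krt7 220 against 66.8 to 96.6. Epcam, Tspan8, Sox9 and Cftr did not set it apart, with control 3 above control 2 in each (Epcam 478 against 425). The summed signal of the 7 cholangiocyte markers was 2518 in control 2, 688 and 1249 in the other controls and 684 to 898 in the knockouts. Control 2 was also highest in some of 5 enterocyte markers. Fabp2 read 8247 there against 2387 to 4544 elsewhere, and Vil1 97.0 against 4.4 to 20.0. Fgf15 and Slc10a2 were higher in control 1 than in control 2. Of a list of NRF2 target genes, 9 of 12 rose and 0 fell. In whole liver, fewer cells of a type and less RNA per cell cannot be told apart.

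Of the 10 enzymes, 2 rose in the knockouts, Cyp39a1 of the oxysterol routes and Acox2 of side-chain shortening, and 0 fell. They account for 2 of the 14 probe sets tested, 14.3%, where 1.54% of all 27022 probe sets tested passed in either direction (limma, Benjamini-Hochberg adjusted p under 0.05). The members' differences on the log2(signal + 16) scale had a median of 0.33, against -0.04 over all probe sets tested, and 12 of the 14 lay above 0, against 44.4% of all. The groups did not overlap in 6 of the 14 probe sets, 42.9%, where they did not overlap in 20.5% of all probe sets tested. These tallies count some genes more than once. Cyp7a1, Cyp7b1, Akr1d1 and Baat have 2 probe sets each among the 14, all above 0, and both of Akr1d1 are among the 6. The hepatocyte markers moved with the groups in the same direction, and their part in the members' differences was not tested.

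**Figure D1:**
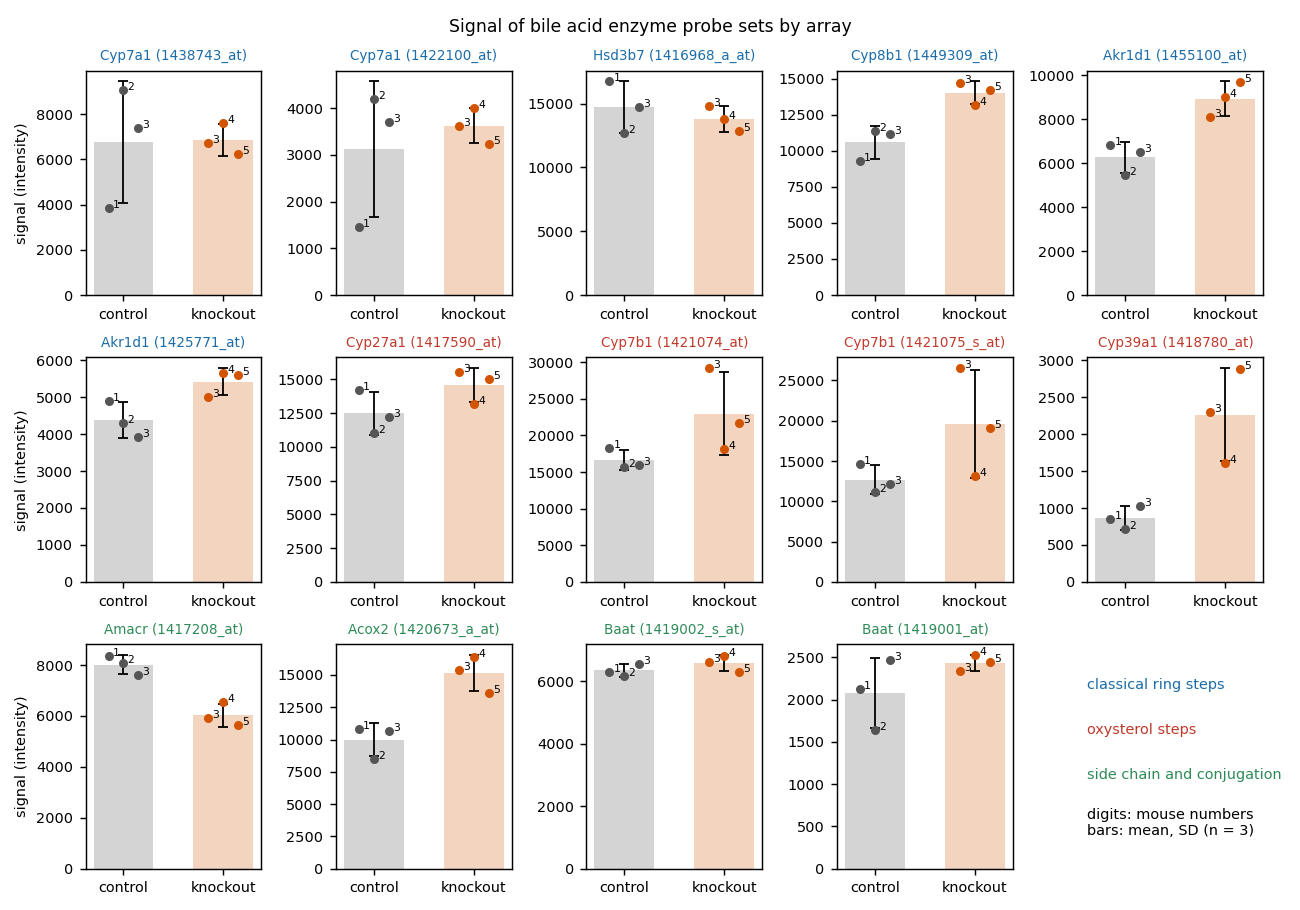
Deposited signal (linear intensity, y axis from 0) of the 14 tested probe sets of the bile acid enzymes in 3 control and 3 knockout livers; points are arrays with their mouse numbers, bars the mean and lines the SD (n = 3 each), and title colours give the step of the pathway. The Cyp39a1 knockouts (1616 to 2878) all lie above the controls (715 to 1029), the Amacr knockouts (5641 to 6528) all lie below the controls (7625 to 8365), and control 1 is low in both Cyp7a1 panels.

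The classical route was examined first. Cyp7a1, whose product catalyses its rate-limiting step, differed little between the groups and varied most among the controls. In its brighter probe set (1438743_at) the knockouts 3, 4 and 5 had signals of 6719, 7617 and 6239.8, and the controls 1, 2 and 3 had 3835, 9087 and 7395. The controls therefore lay on both sides of all 3 knockouts. The difference was 0.10 (standard error 0.27, limma adjusted p = 0.900), and its 95% interval ran from 0.707-fold to 1.63-fold. In the second probe set (1422100_at) the knockouts had 3619, 3990.1 and 3240.3 and the controls 1465, 4191 and 3699. It differed by 0.35 (standard error 0.33, limma adjusted p = 0.680, interval 0.756-fold to 2.13-fold). Control 1 had the lowest signal of all 6 mice in both probe sets, and without it the differences were -0.26 and -0.13, neither past the threshold (limma adjusted p = 0.484 and 0.725).

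Cyp7a1 has a daily rhythm in liver, and no time of sampling was used here. Of 15 clock genes 9 lay above and 6 below the controls, and 0 passed (limma, 2 at an unadjusted p under 0.05). Those 2 were Per1 and Ciart, with log2 differences of 0.51 and 2.01 (limma adjusted p = 0.327 and 0.274). In both, every knockout lay above every control, and Ciart read only 19.7 in control 3. The part of the clock in the members' differences was not tested. Among the brightest clock genes, Dbp in control 1 read 4179, between the 2957 and 4682 of the other controls. Nr1d2 read 5307 in control 1, above the 4314 and 3784 of the other controls. In knockouts 3, 4 and 5 Dbp read 2141, 2085 and 4906, and Nr1d2 read 4239, 3700 and 5084. Nr0b2, which encodes SHP, a repressor of Cyp7a1 transcription, was looked at after its values were seen. It read 1368, 801 and 1373 in controls 1, 2 and 3 and 676, 556 and 1299.7 in knockouts 3, 4 and 5. The groups overlapped, and Nr0b2 differed by -0.53 (standard error 0.31, limma adjusted p = 0.476).

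Hsd3b7, the dehydrogenase that acts on the product of the ring hydroxylases in every route, had 14839.7, 13774 and 12834 in the knockouts and 16758, 12709 and 14710.4 in the controls. These ranges overlapped. The difference was -0.09 (standard error 0.12, limma adjusted p = 0.788), and the interval of 0.785-fold to 1.13-fold bounds a change in either direction.

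Cyp8b1, which adds the ring hydroxyl that distinguishes cholic acid, had signals of 14703, 13157 and 14214 in the knockouts and 9292, 11339 and 11138 in the controls. Every knockout lay above every control. At 14025 ± 790 against 10590 ± 1128 (SD, n = 3 each) it was 1.33-fold the control level, a difference of 0.41 that did not pass (standard error 0.10, limma adjusted p = 0.112, interval 1.13-fold to 1.56-fold).

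Akr1d1, the reductase that gives the sterol ring the bent shape of bile acids, was measured by 2 probe sets. The brighter one (1455100_at) had 8121, 9036 and 9684 in the knockouts and 6828, 5456 and 6520.1 in the controls. Its groups did not overlap, and at 1.43-fold the control level it missed the threshold (log2 difference 0.52, standard error 0.11, limma adjusted p = 0.0724). The dimmer one (1425771_at) had 4999, 5663 and 5592 against 4890.4, 4297 and 3931, also without overlap, and differed by 0.31 (limma adjusted p = 0.233). The classical steps thus held 3 genes above the controls and 1 below, with 0 past the threshold (limma, 2 of the 4 brightest probe sets at an unadjusted p under 0.05) and a median difference of 0.26.

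**Figure D2:**
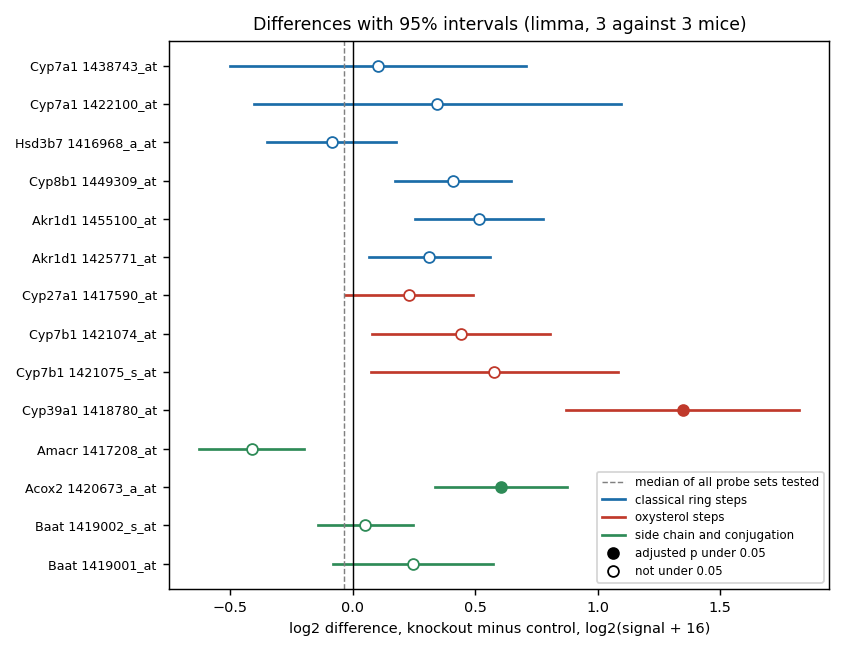
Log2 difference between knockouts and controls (x axis, on log2(signal + 16)) for the 14 tested probe sets, coloured by step, with 95% intervals from limma; filled points have an adjusted p under 0.05 and the dashed line is the median of all probe sets tested, -0.04. The Cyp39a1 interval (0.87 to 1.82) and the Acox2 interval (0.33 to 0.87) belong to the 2 filled points, and the Cyp7a1 intervals are the widest of the classical steps.

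The oxysterol steps held the largest difference among the members. Cyp39a1, which adds the ring hydroxyl to an oxysterol formed mainly in brain, had signals of 2297, 1616 and 2878 in knockouts 3, 4 and 5 and 853, 715 and 1029 in controls 1, 2 and 3. The groups did not overlap, and the lowest knockout lay well above the highest control. Cyp39a1 rose from 866 ± 157 to 2264 ± 631 (SD, n = 3 each), 2.54-fold with an interval of 1.83-fold to 3.54-fold (log2 difference 1.35, standard error 0.21, limma adjusted p = 0.0179). It lost its call without knockout 3, control 1 or control 2 (limma adjusted p = 0.0826, 0.0621 and 0.0628), while its difference stayed between 1.16 and 1.57 with any 1 array left out. It also had no call when limma's variance trend was dropped (adjusted p = 0.0922), a setting that called 109 of all probe sets rather than 415.

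Cyp7b1, the main oxysterol ring hydroxylase of liver, was also above the controls on average but varied widely among the knockouts. Its brightest probe set (1421074_at) had 29179.9, 18125 and 21657 in knockouts 3, 4 and 5 and 18264, 15756 and 15905 in the controls. Knockout 3 was the highest of all mice, whereas knockout 4 lay within the controls' range. The difference of 0.44 did not pass (standard error 0.16, limma adjusted p = 0.250) and was 0.25 without knockout 3. A second probe set (1421075_s_at) had 26521, 13111 and 19043 against 14671, 11147 and 12177. It showed the same order of knockouts and differed by 0.58 (limma adjusted p = 0.281), or 0.33 without knockout 3. The third Cyp7b1 probe set was dim, at 30.3 to 95.9 over all mice, and was not tested.

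Cyp27a1, the mitochondrial hydroxylase that opens the oxysterol route in liver and also acts on the side chain in the classical one, had 15553, 13199 and 15024 in the knockouts and 14188, 10994 and 12239.8 in the controls. The groups overlapped, and the difference was 0.23 (standard error 0.12, limma adjusted p = 0.405, interval 0.978-fold to 1.41-fold). Its other probe set read 2.7 to 32.3 and was not tested. The median of the 3 oxysterol genes was 0.44, or 0.25 without knockout 3 and 0.89 over Cyp7b1 and Cyp39a1 alone, and all 3 lay above 0.

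Within arrays, Cyp39a1 shifted by 0.91 more than Cyp7b1 on the log2 scale, with 0.59 to 1.35 in the knockouts and -0.18 to 0.32 in the controls relative to the control mean. Against Cyp7a1 the extra shift was 1.24, and there the groups overlapped, at 0.65 to 1.76 in the knockouts and -0.77 to 0.72 in the controls. These pairs were chosen after their values were seen and carry no test.

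Cyp39a1 and Cyp7b1 are known for levels that differ between the sexes in mouse liver, and all mice here were male. Among 12 male-biased genes other than Cyp7b1, 4 fell and 10 lay below the controls, with a median difference of -0.94. Cyp7b1, a male-biased gene itself, lay on the other side at 0.44. Of 12 female-biased genes other than Cyp39a1, 7 had a probe set and 5 were tested. All 5 had positive differences (median 0.54), and 0 passed (limma, 2 at an unadjusted p under 0.05). Of these, Cyp2b13 reached the level for testing, 84.2, only through its knockouts (mean 157, with 342 in knockout 4, against 70.5 in the controls). Its positive sign is therefore partly set by the filter. Cyp17a1, a steroid hydroxylase, had 1846, 1055 and 1976 in knockouts 3, 4 and 5 and 517, 661 and 1136 in the controls. Like Cyp39a1 it was lowest among the knockouts in mouse 4 and highest in mouse 5, and it differed by 1.09 with overlapping groups (standard error 0.30, limma adjusted p = 0.142). Cyp2b9 ran the other way, with 8767 in knockout 4 and 331 and 479 in the other knockouts, against 135 to 195 in the controls. The part of these genes in the Cyp39a1 difference was not tested.

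Side-chain shortening split between its members. Acox2, the peroxisomal oxidase for branched bile acid intermediates, had signals of 15408, 16389.7 and 13639 in the knockouts and 10796, 8520.5 and 10651 in the controls. Every knockout lay above every control. Acox2 rose from 9989 ± 1274 to 15145 ± 1394 (SD, n = 3 each), 1.52-fold with an interval of 1.26-fold to 1.83-fold (log2 difference 0.60, standard error 0.12, limma adjusted p = 0.0462). Its call lay next to the threshold and was lost without any 1 array (limma adjusted p between 0.0557 without knockout 5 and 0.170 without knockout 3) and after quantile, cyclic loess, median or hybridisation-control scaling (0.0733, 0.0649, 0.0900 and 0.0903). The same held with no filter, without the variance trend and over averaged probe sets (0.0986, 0.182 and 0.0518). Its difference was 0.49 without control 2, which had the lowest Acox2 signal of all mice. Control 2 is also the array with high Krt19, Krt7 and Muc1, and their part in the Acox2 difference was not tested.

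Amacr, the racemase that turns the side chain into the form ACOX2 accepts, had 5918, 6528 and 5641 in the knockouts and 8365, 8066 and 7625 in the controls. Here every knockout lay below every control, with a mean of 6029 ± 454 against 8019 ± 372 (SD, n = 3 each), 75.2% of control. The difference of -0.41 missed the threshold (standard error 0.09, limma adjusted p = 0.0796) and passed it after quantile normalization, cyclic loess, hybridisation-control scaling and with array weights (0.0196, 0.0186, 0.0433 and 0.0472). Of the probe sets tested, 11.4% had every knockout below every control and 9.1% had every knockout above. Within arrays, Acox2 shifted by 1.02 more than Amacr on the log2 scale, or 2.02-fold. A constant factor on an array's values leaves that measure nearly as it is, and it ran from 0.96 to 1.07 in the knockouts and from -0.23 to 0.17 in the controls. The pair was chosen after its values were seen, so no test was made.

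Baat, which joins the finished bile acid to taurine or glycine, lay close to the controls. Its brighter probe set (1419002_s_at) had 6618, 6804 and 6287 against 6305, 6160.4 and 6554, with overlapping groups and a difference of 0.05 (standard error 0.09, limma adjusted p = 0.834). The interval ran from 0.905-fold to 1.19-fold, the narrowest among the members. The other (1419001_at) had 2338, 2522 and 2443 against 2127, 1646 and 2465 and differed by 0.24 (limma adjusted p = 0.481). The median of the 3 side-chain and conjugation genes was 0.05, with Acox2 and Amacr at its ends.

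**Figure D3:**
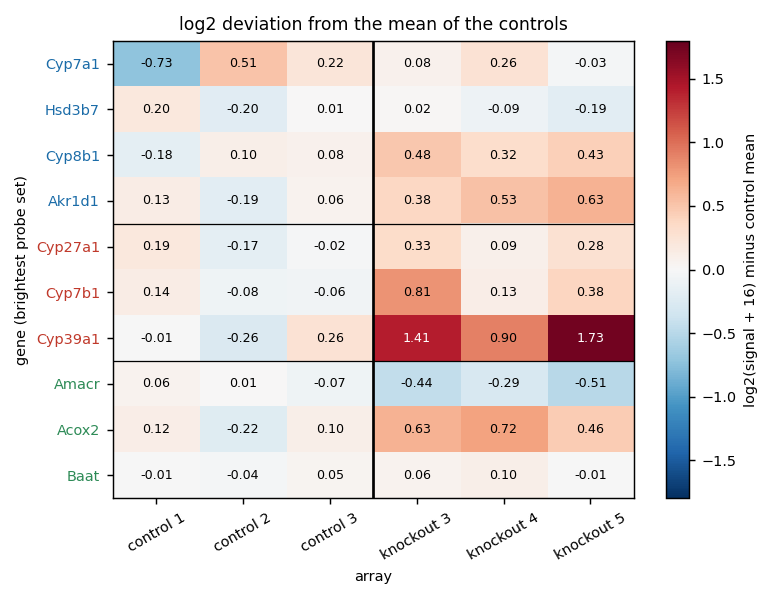
Log2 deviation of each array from the mean of the 3 controls for the brightest probe set of each of the 10 genes (rows, grouped by step; columns are mice; colour and number give log2(signal + 16) minus the control mean). Cyp39a1 stands at 0.90 to 1.73 in the knockouts, Amacr at -0.51 to -0.29, and Cyp7a1 shows its largest deviation, -0.73, in control 1.

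Across the steps, the median deviation of the classical genes was 0.23, 0.29 and 0.20 in knockouts 3, 4 and 5. For the oxysterol genes it was 0.81, 0.13 and 0.38. For the side-chain and conjugation genes it was 0.06, 0.10 and -0.01. The controls lay between -0.04 and 0.07 for the classical genes, between -0.17 and 0.14 for the oxysterol genes and between -0.04 and 0.06 for the side-chain genes. The median of the oxysterol genes varied most from mouse to mouse, and its value in knockout 4 lay within the controls' range, although Cyp39a1 alone stood at 0.90 there against -0.26 to 0.26 in the controls. Differences between the steps were not tested, because the genes of a step are not replicates.

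Beyond the members, of 18 further genes of bile acid formation, 17 had a probe set and all 17 were tested: 9 lay above and 8 below the controls, with a median of 0.01, and 0 passed (limma, 1 at an unadjusted p under 0.05). The largest difference was that of Sult2a8, a sulfotransferase of bile acids, with 9524, 15781 and 10822 in the knockouts and 19085, 17582 and 16470.2 in the controls. Its groups did not overlap, and it differed by -0.59 (standard error 0.17, limma adjusted p = 0.155), or by -0.80 with a call without knockout 4 (limma adjusted p = 0.0193). The acyltransferase Acnat2 differed by 0.36, the peroxisomal thiolase Acaa1b by -0.23 and the thioesterase Acot8, which can release bile acids from coenzyme A, by 0.21 (limma adjusted p = 0.745, 0.516 and 0.619). Slc27a5, which activates bile acids with coenzyme A before BAAT acts and was named after its values were seen, read 15797 to 18298 in the knockouts and 13419.9 to 19885 in the controls.

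Among 22 receptors and factors that set the level of these enzymes, 19 had a probe set and 18 were tested; 1 rose and 1 fell. Mafg, a small Maf protein that pairs with NRF2 and is known as a repressor of bile acid synthesis genes including Cyp8b1, had 2057, 1873 and 1907 in the knockouts and 1387, 1387 and 1324 in the controls. It rose 1.42-fold (log2 difference 0.50, standard error 0.10, limma adjusted p = 0.0434), a call that was lost without any 1 array (limma adjusted p = 0.0834 without knockout 4 to 0.196 without knockout 3), with no filter (0.0510), after median centring (0.0661), on the hybridisation controls (0.158), without the variance trend (0.152) and over averaged probe sets (0.0696). Its dimmer probe set differed by 0.48 with overlapping groups (limma adjusted p = 0.231). Nr2f2, the orphan receptor COUP-TFII, had 573, 620 and 594 in the knockouts and 908, 1022 and 1070.3 in the controls.

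Nr2f2 fell to 59.6% of control in that probe set (log2 difference -0.73, standard error 0.12, limma adjusted p = 0.0207). It kept its call without knockout 4 or control 1 and lost it without knockout 3, knockout 5, control 2 or control 3 (limma adjusted p = 0.10, 0.0558, 0.0783 and 0.0690), and also without the variance trend (0.0841) and over averaged probe sets (-0.34, 0.275). Its 3 other tested probe sets differed by -0.32, -0.29 and -0.04 without a call. NR2F2 is made in endothelial and stellate cells as well as hepatocytes. Of 8 sinusoidal endothelial markers 5 lay below and 3 above the controls, with summed signals of 6802 to 7101 in the knockouts and 6372 to 6814 in the controls. Of 8 stellate cell markers 4 lay above and 4 below, with summed signals of 11676 to 12851 and 11557 to 12597. The part of these cells in the Nr2f2 value was not tested.

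Named after their values were seen, Hnf4a, a hepatocyte factor that drives Cyp7a1 and Cyp8b1, had 9981 to 12249.5 in the knockouts against 7861 to 9169 in the controls (difference 0.41, limma adjusted p = 0.121). Nr1i3, which encodes the receptor CAR, read 5559.9 to 6896 in the knockouts and 4203 to 4606 in the controls (difference 0.48, limma adjusted p = 0.0695) and passed with array weights (0.0484). Nr1h4, which encodes the bile acid receptor FXR, overlapped between the groups at 3386 to 3577 and 3116 to 5114 (difference -0.24, limma adjusted p = 0.546).

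**Figure D4:**
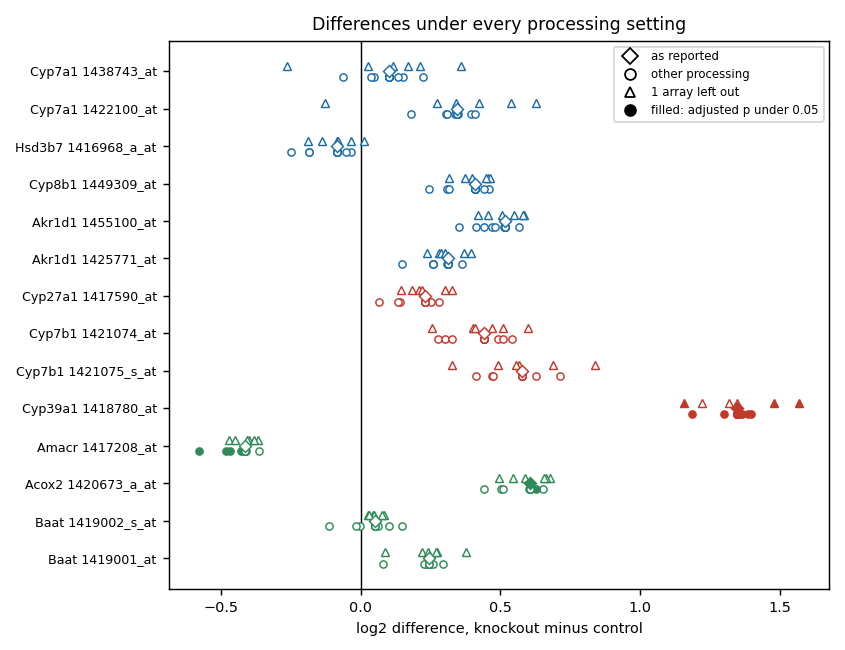
Log2 difference between knockouts and controls (x axis) of the 14 tested probe sets as reported (diamonds), under other processing (circles) and with 1 array left out (triangles); filled symbols have an adjusted p under 0.05. Cyp39a1 stays between 1.16 and 1.57 and Amacr between -0.58 and -0.36, and the Cyp7a1, Hsd3b7 and brighter Baat probe sets fall on both sides of 0.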

How the data were processed

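RNA of 6 livers was hybridised, per the labels' protocols, as biotin-labelled cRNA to single-colour arrays. The authors deposited linear intensity for 45101 probe sets. Neither the summarising software nor the genome build is given in the sources used here. With the lowest and highest 2% removed every array has a mean of 500.0, so the authors scaled the arrays to 1 target, which hides changes in total RNA. Of the 45101, 64 were controls, 34945 had 1 gene symbol in the platform's table, 932 several and 9160 none. From the signals log2(signal + 16) was computed. Folds are on that scale, which understates changes of dim genes. Probe sets at or above the 40th percentile of mean signal (27022) were tested by limma (3.58.1, under R 4.3.3; variance trend, two-sided, Benjamini-Hochberg over all tested, threshold 0.05). The limma testing was checked on simulated arrays with known differences, and no step of the pathway was tested as a group. The number of arrays limits precision, and an exact test of 3 against 3 cannot go below p = 0.1. Replicate numbers do not pair the mice. The text names every member, further genes and regulators past the threshold or else the 4 with the largest difference, and some markers. The named hepatocyte, cholangiocyte, enterocyte, clock and sex-biased genes are not always the brightest of their lists. Members, lists and rules were chosen with earlier results of these data known. Alternatives changed filter, offset, normalization, variance model, unit of testing and arrays.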

Additional observations from a re-analysis of the deposited data

How the results depend on the processing

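The count of 2 member probe sets past the threshold was 0 without the variance trend (limma, 5 at an unadjusted p under 0.05), where 109 of all probe sets passed rather than 415, and 0 with a test that takes each variance alone (also 5), where 0 of all 27022 passed (2542 at an unadjusted p under 0.05), so the latter says nothing about single genes. It was 3 with array weights, 1 with no filter, after median centring and with a gene's probe sets averaged, and 0 to 1 without 1 array. After quantile normalization, cyclic loess and hybridisation-control scaling it stayed at 2. There Amacr, which lay below the controls, passed in place of Acox2. The 415 calls over all probe sets became 216 without control 1, 218 without control 2 and 150 without knockout 3. Scaling on the hybridisation controls moved the median of all probe sets to -0.20 and the split of calls from 220 higher and 195 lower to 134 and 428. There the brighter Cyp7a1 and Baat probe sets became -0.0615 and -0.11, both above that median. The brighter Baat probe set was -0.015 after cyclic loess and -0.0027 after quantile normalization. Without 1 array Cyp7a1 ranged from -0.26 to 0.36 in its brighter probe set and from -0.13 to 0.63 in the other, and Hsd3b7 from -0.19 to 0.0124. The classical median of 0.26 was 0.18 after quantile normalization and cyclic loess, 0.0917 on the hybridisation controls, 0.32 over mean probe sets and 0.17 to 0.39 without 1 array. The oxysterol median of 0.44 was 0.28 on the hybridisation controls, 0.25 without knockout 3 and 0.60 without knockout 4, the ends of its range without 1 array. It became 0.89 and the side-chain median 0.14 with Cyp27a1 among the side-chain genes. The side-chain median was otherwise -0.015 after cyclic loess, -0.11 on the hybridisation controls and 0.15 over mean probe sets. It was 0.24 without probe sets whose names end in _s_at or _x_at, where the dimmer Baat probe set replaced the brighter one. The regulator count of 2 was 3 with array weights, 0 without the trend, with separate variances and over mean probe sets, 1 with no filter, after median centring and on the hybridisation controls, and 0 to 1 without 1 array. The count of further genes was 0 to 1 without 1 array. Of 21 settings Cyp39a1 passed in 16, Acox2 in 7 and Amacr in 4. No paired analysis was possible because the groups share only the replicate number 3.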
